A study of Arabidopsis thaliana with 6 samples.

Results

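Cytochromes P450 and tau-class glutathione transferases were followed in leaf stalks (petioles) of Arabidopsis thaliana, from plants grown in a dense canopy and from plants grown alone. The set comprised 34 genes, of 13286 genes with a probe set of their own in the annotation used here. Members were taken by symbol: CYP with 2 or 3 digits and a letter, which leaves out the cyclophilins, or GSTU with a digit, on a probe set listed with 1 gene. They were 23 P450s and 11 GSTU genes, each with 1 probe set. The RefSeq gene table holds 263 genes with such symbols, so most of both families was not analysed here by name.

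The canopy group had 3 arrays, from plants set at 2066 plants per m2 directly after they were moved to individual pots, 10 days into growth. The single group had 3 arrays, from potted plants that were kept apart. Both were grown with 9 h of light at 180 µmol per m2 and s, 15 h of dark, 20 °C and 70% humidity, and were harvested at about 23 days, when the leaf area per ground area of the canopies had reached 0.9. Each array came from 2 young petioles of each of 4 plants, pooled. The genotype is not given in the sources used here, and no mutant or transgene is named. Values were deposited as RMA expression values and read as log2, so a difference of 1 is taken as a 2-fold change. The hybridisation controls rose by 1.09 to 1.19 units per doubling, so folds taken this way may be overstated. Where the scale has its zero is not known, and changes near its lower end may be understated. The comparison addresses which of these enzymes' transcripts differ between petioles of crowded plants and of plants without neighbours.

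P450s are heme enzymes, most of them in the membrane of the endoplasmic reticulum, that use oxygen and electrons from NADPH to oxidise small molecules. Plant P450s are sorted into clans by descent. The large clan 71 holds most of the enzymes of specialised metabolism, such as those of glucosinolates, camalexin and phenylpropanoids, while many enzymes of hormone and lipid metabolism belong to the smaller clans. Tau glutathione transferases are a plant class that joins the tripeptide glutathione to reactive or toxic compounds, herbicides among them, and many are induced by stress. Conjugates are then moved into the vacuole by ABC transporters.

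The measured P450s covered the clans unevenly. Clan 71 had 22 members of 154 genes in the RefSeq table, and 19 of the 22 were of the CYP71B subfamily, which has 36 genes there. The others of clan 71 were CYP78A9, CYP79A2 and CYP84A4. Clan 51 had 1 member of 2 genes, CYP51G2. No gene of the clans named after CYP72, CYP85, CYP86, CYP97, CYP710 and CYP711, which have 18, 22, 33, 2, 4 and 1 genes in the table, was a member, so the brassinosteroid, gibberellin, cytokinin, abscisic acid and cutin enzymes of those clans were not analysed here. Of 27 GSTU genes, 11 were members.

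One member passed the test: CYP71B23 was about 2-fold higher in the canopy. The 22 other P450s and the 11 GSTU genes did not pass. Among these 33 no 95% interval reached a 2-fold change in either direction. By the limma test over all 22746 probe sets (Benjamini-Hochberg adjusted p under 0.05), 1 of the 34 members was higher and 0 were lower, against a background of 0.426% higher and 0.251% lower (0.677% in all). At an unadjusted p under 0.05 the members past the line were CYP71B23 and CYP84A4, 2 of 34, against 12.2% of all probe sets. Of the GSTU genes, 0 passed at an unadjusted p under 0.05. In such whole-petiole samples a change in transcripts per cell and a change in the share of the cells that hold them cannot be told apart.

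**Figure D1:**
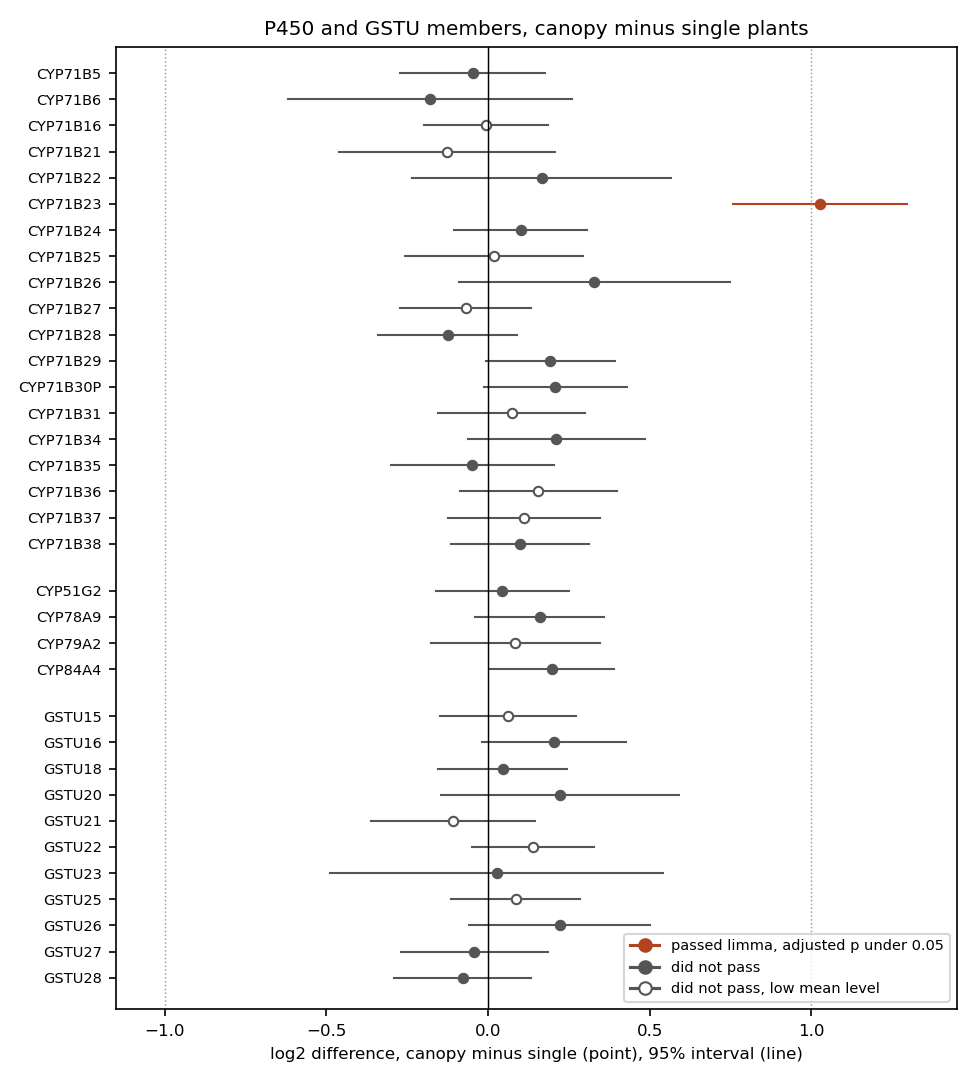
Log2 difference between canopy and single plants for each of the 34 members, with CYP71B genes at the top, the other P450s in the middle and GSTU genes at the bottom. Points are differences of group means (n = 3 arrays each), lines are 95% intervals from limma, open points mark a mean level at or below 0.87 (the 25th percentile of all probe sets), and dotted lines mark 2-fold. CYP71B23, at 1.03, is the one member past the test, and the intervals of the 33 others run from -0.62 to 0.75.

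CYP71B23 (locus AT3G26210) encodes a P450 of clan 71. Its level was 2.03, 2.29 and 2.14 on the canopy arrays, against 1.01, 1.03 and 1.34 on the single-plant arrays (log2). All canopy arrays lay above all single-plant arrays, with a gap of 0.69 between the lowest canopy and the highest single-plant value. The group means (± SD, n = 3 each) were 2.15 ± 0.13 in the canopy and 1.13 ± 0.18 in single plants. The difference was 1.03 ± 0.12 (log2, SE; 95% interval 0.76 to 1.29), a 2.04-fold rise, with a limma adjusted p of 0.013. In single plants its level lay near the median of all probe sets, 1.29, where a change may be understated. By the slope of the hybridisation controls, 1.09 to 1.19 units per doubling, the fold may be overstated instead. An exact permutation test on this gene alone gave p = 0.1 (two-sided), the smallest value that 3 against 3 arrays allow. Groups without overlap always give this value.

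The call of CYP71B23 did not hold in all fits with 1 array left out. The limma adjusted p was 0.055 without single replicate 1 and 0.072 without single replicate 2, with differences of 0.97 and 0.98 (log2), and lay between 0.023 and 0.049 when any of the other 4 arrays was left out. Calls over all probe sets also fell, to 37 without single replicate 1 and 17 without single replicate 2, against 154 with all arrays. The fall was not particular to these fits. Calls were 36 without single replicate 3 and 45 without canopy replicate 2, where CYP71B23 passed. Canopy replicate 1 stood apart from the rest on the second principal component of all probe sets. Without that array the difference of CYP71B23 was 1.09 ± 0.13 (log2, SE; limma adjusted p = 0.023), and it was again the 1 member called. Groups that do not overlap keep their direction whichever array is left out, so the sign in these fits carries no information.

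**Figure D2:**
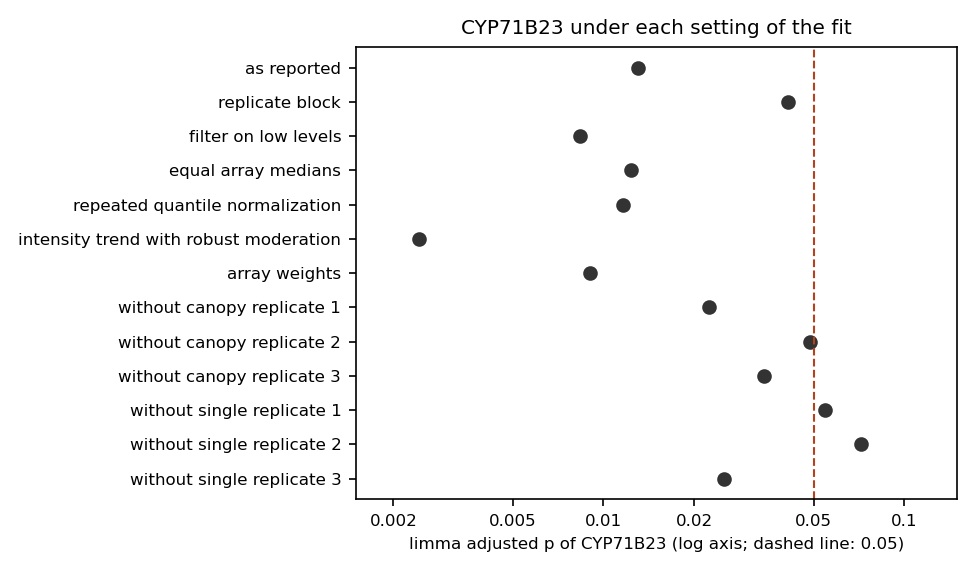
Adjusted p of CYP71B23 from limma under the reported fit and 12 alternatives, on a log axis, with the threshold of 0.05 as a dashed line. The p-values run from 0.0024, with an intensity trend and robust moderation, to 0.072, without single replicate 2, and 2 of the points lie to the right of the line.

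CYP71B23 lies within a cluster of CYP71B genes. By gene order in the RefSeq table, 18 CYP71B genes from CYP71B16 to CYP71B37 follow each other with at most 10 other genes between neighbours, and 11 of them were measured. CYP71B22 is the next gene on one side, with 0 genes between, and CYP71B24 is the second on the other side, beyond CYP71B3, which was not analysed here. CYP71B22 stood at 1.06, 1.62 and 1.20 in the canopy and at 0.90, 1.44 and 1.04 in single plants, and CYP71B24 at 1.07, 1.1 and 0.90 in the canopy and at 0.91, 0.96 and 0.90 in single plants (log2). The groups overlapped for both neighbours, and replicate 2 was the highest array of each group.

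The difference was 0.17 ± 0.18 for CYP71B22 and 0.10 ± 0.09 for CYP71B24 (log2, SE), with limma adjusted p of 0.80 and 0.75. The change of CYP71B23 was set against that of each neighbour array by array. CYP71B23 minus CYP71B22 came to 0.86 ± 0.17 in the canopy, against 0.0011 ± 0.37 in single plants, and CYP71B23 minus CYP71B24 was 1.13 ± 0.15 in the canopy, against 0.20 ± 0.20 in single plants (SD of log2 differences, n = 3 each). In both pairs every canopy array exceeded every single-plant array. The exact permutation test gave p = 0.1, the smallest possible (two-sided, 2 pairs compared, 0.1 also after Benjamini-Hochberg adjustment over both). Groups without overlap always give this value, and with 3 arrays per group the test cannot reach 0.05. CYP71B23 was singled out by its difference, and these neighbours were picked after their values were seen. The 2 pairs are therefore not independent support for that difference.

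Of the 10 other measured genes of the cluster, 7 had a positive and 3 a negative difference, from -0.13 for CYP71B21 to 0.33 for CYP71B26, with a median of 0.11 (log2). Their 95% intervals spanned -0.46 to 0.75. A mean level of 0.87, the 25th percentile of the probe set means, is taken as low here, and 5 of the 10 genes did not exceed it. CYP71B36 stood at 0.85, 0.87 and 0.86 in the canopy and at 0.50, 0.77 and 0.84 in single plants (log2), without overlap but with a gap of 0.0085, and its difference was 0.16 ± 0.11 (log2, SE; limma adjusted p = 0.64), or 0.05 without single replicate 1, its lowest array. CYP71B21 stood at 0.68, 0.76 and 0.85 in the canopy and at 1.2, 0.59 and 0.88 in single plants (log2). Its single-plant arrays lay on both sides of the canopy range. The differences were 0.21 ± 0.12 for CYP71B34, 0.11 ± 0.10 for CYP71B37, 0.02 ± 0.12 for CYP71B25, -0.01 ± 0.08 for CYP71B16 and -0.05 ± 0.11 for CYP71B35 (log2, SE), all with overlapping groups. A probe set listed with both CYP71B19 and CYP71B20, which belong to the same cluster, stood at 1.88, 1.92 and 1.35 in the canopy and at 1.29, 1.51 and 1.32 in single plants (log2). Its groups overlapped, with canopy replicate 3 among the single-plant values, and the difference was 0.34 ± 0.15 (log2, SE; limma adjusted p = 0.42). Close relatives of this kind can share probe signal, and how far the probes of the cluster cross-hybridise was not tested.

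**Figure D3:**
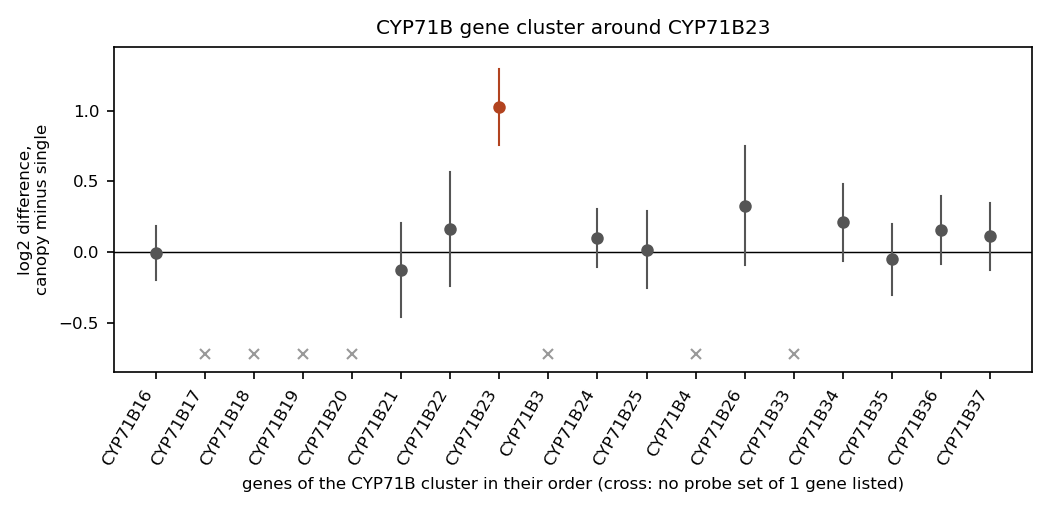
Log2 difference between canopy and single plants along the CYP71B cluster, with the 18 genes in their order on the horizontal axis. Points are differences of group means (n = 3 arrays each), lines are 95% intervals from limma, and crosses mark the 7 genes not measured on a probe set of their own. CYP71B23 stands at 1.03 and the 10 other measured genes between -0.13 and 0.33.

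CYP71B26 had the next largest difference among the P450s, 0.33 ± 0.18 (log2, SE; limma adjusted p = 0.54). It stood at 3.50, 4.14 and 4.17 in the canopy and at 3.52, 3.47 and 3.83 in single plants (log2). Canopy replicate 1 lay within the single-plant range and the other canopy arrays above it. Without canopy replicate 1, the array that stood apart, the difference was 0.55 ± 0.13 (log2, SE; limma adjusted p = 0.12), so that this array moved the value by more than 1.5 times without bringing it past the threshold.

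CYP71B6 oxidises indole-3-acetonitrile, an indolic intermediate and glucosinolate breakdown product, towards indole-3-carboxylic acid. It stood at 4.57, 4.09 and 4.96 in the canopy and at 4.60, 4.74 and 4.83 in single plants (log2). The canopy arrays lay on both sides of the single-plant range. The difference was -0.18 ± 0.19 (log2, SE; limma adjusted p = 0.80), and without canopy replicate 2, the lowest array, it was 0.05. CYP79A2, which makes phenylacetaldoxime from phenylalanine for benzylglucosinolate, stood at 0.67, 1.01 and 1.00 in the canopy and at 0.85, 0.72 and 0.86 in single plants (log2). Its groups overlapped, its mean level was below 0.87, and the difference was 0.08 ± 0.11 (log2, SE; limma adjusted p = 0.85). It was 0.20 without canopy replicate 1 and 0.02 to 0.04 without canopy replicate 2, canopy replicate 3 or single replicate 2. These were the 2 measured genes of a list of 19 glucosinolate and camalexin P450s, and 0 of the 2 passed.

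CYP84A4 catalyses a step in the synthesis of arabidopyrones, phenylalanine-derived pyrones of Arabidopsis stems, and is a relative of ferulate 5-hydroxylase. It stood at 1.28, 1.23 and 1.17 in the canopy and at 0.99, 1.09 and 1.01 in single plants (log2). The groups did not overlap and were 0.082 apart. The difference was 0.20 ± 0.08 (log2, SE; 95% interval 0.0047 to 0.39), with an unadjusted p of 0.046 and a limma adjusted p of 0.39. It was the 1 measured gene of 7 in the phenylpropanoid list and did not pass.

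CYP78A9 belongs to a subfamily that promotes organ, seed and fruit growth. It stood at 1.35, 1.18 and 1.29 in the canopy and at 1.15, 1.1 and 1.09 in single plants (log2). All canopy arrays lay above the single-plant arrays, by a gap of 0.028. The difference was 0.16 ± 0.09 (log2, SE; limma adjusted p = 0.53), and CYP78A9 was the 1 measured gene of 6 in the CYP78A list. CYP51G2, annotated as a transcribed pseudogene related to the sterol demethylase CYP51, stood at 1.00, 1.05 and 0.99 in the canopy and at 0.90, 0.91 and 1.09 in single plants (log2). Its groups overlapped and the difference was 0.04 ± 0.09 (log2, SE; limma adjusted p = 0.91).

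Of the CYP71B genes outside the cluster, CYP71B29 had the smallest p. It stood at 1.36, 1.40 and 1.35 in the canopy and at 1.27, 1.18 and 1.08 in single plants (log2), without overlap and with a gap of 0.083. The difference was 0.19 ± 0.09 (log2, SE; limma adjusted p = 0.43). CYP71B29 stands in a second group of 5 CYP71B genes with CYP71B28, at -0.12 ± 0.09, and the transcribed pseudogene CYP71B27, at -0.07 ± 0.09 (log2, SE). CYP71B27 was the 1 member whose canopy arrays all lay below its single-plant arrays, and the gap was 0.00060 (log2). Another group held CYP71B5, at -0.05 ± 0.10, CYP71B31, at 0.07 ± 0.10, and CYP71B30P, at 0.21 ± 0.10 (log2, SE), of which the last is named a pseudogene and listed as protein-coding in the RefSeq table. All of these missed the limma threshold, as did CYP71B38, at 0.10 ± 0.09 (log2, SE).

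Of the 11 GSTU genes 0 passed the test, and their 95% intervals lay between -0.49 and 0.59 (log2). GSTU20, a jasmonate-linked enzyme that binds the jasmonate-conjugating protein FIN219 (JAR1), stood at 8.91, 8.51 and 8.31 in the canopy and at 8.42, 8.50 and 8.14 in single plants (log2). Canopy replicate 1 was the highest array, canopy replicate 2 lay just above the single-plant range (8.510 against 8.505) and canopy replicate 3 inside it. The difference was 0.22 ± 0.16 (log2, SE; limma adjusted p = 0.66), and without canopy replicate 1 it was 0.05 ± 0.13 (log2, SE; limma adjusted p = 0.93). GSTU18 stood at 5.86, 5.78 and 5.69 in the canopy and at 5.76, 5.74 and 5.70 in single plants, and GSTU27 at 4.54, 4.55 and 4.78 in the canopy and at 4.75, 4.67 and 4.59 in single plants (log2). For both genes the canopy arrays lay on both sides of the single-plant range. The differences were 0.04 ± 0.09 and -0.04 ± 0.10 (log2, SE), and the 95% intervals of both genes together ran from -0.27 to 0.24.

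GSTU16, GSTU26 and GSTU22 had the smallest p-values of the class. GSTU16 stood at 2.50, 2.44 and 2.30 in the canopy and at 2.33, 2.18 and 2.13 in single plants (log2), so that 1 canopy array lay just within the single-plant range. Its difference was 0.20 ± 0.10 (log2, SE; limma adjusted p = 0.46). GSTU26 stood at 1.02, 1.27 and 0.82 in the canopy and at 0.73, 0.84 and 0.87 in single plants, with overlapping groups and a difference of 0.22 ± 0.12 (log2, SE; limma adjusted p = 0.54), which was 0.10 without canopy replicate 2, its highest array, and 0.33 without canopy replicate 3. GSTU22 was the 1 GSTU gene without overlap: 0.85, 0.91 and 0.84 in the canopy and 0.78, 0.69 and 0.72 in single plants (log2), a difference of 0.14 ± 0.08 (log2, SE; limma adjusted p = 0.58) at a mean level below 0.87. GSTU25, known for conjugating the explosive trinitrotoluene and the neighbour of GSTU26, was also at a low level and differed by 0.09 ± 0.09 (log2, SE).

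GSTU23 varied most among the members within a group. It stood at 1.78, 1.44 and 2.48 in the canopy and at 1.96, 1.92 and 1.74 in single plants (log2). Canopy replicate 3 was the highest and canopy replicate 2 the lowest of all its arrays. The SD was 0.53 for the canopy and 0.11 for single plants, and the difference was 0.03 ± 0.23 (log2, SE; limma adjusted p = 0.98). The remaining GSTU genes were GSTU15, at 0.06 ± 0.09, GSTU21, at -0.11 ± 0.11, and GSTU28, at -0.08 ± 0.09 (log2, SE). By gene order, with at most 10 other genes between neighbours, GSTU20, GSTU21, GSTU22 and GSTU23 stand in a group of 5 GSTU genes. Of these, 3 of the 4 measured had a positive difference. By the same rule GSTU15 with GSTU16 and GSTU25 with GSTU26 stand in groups of 2 and 3.

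**Figure D4:**
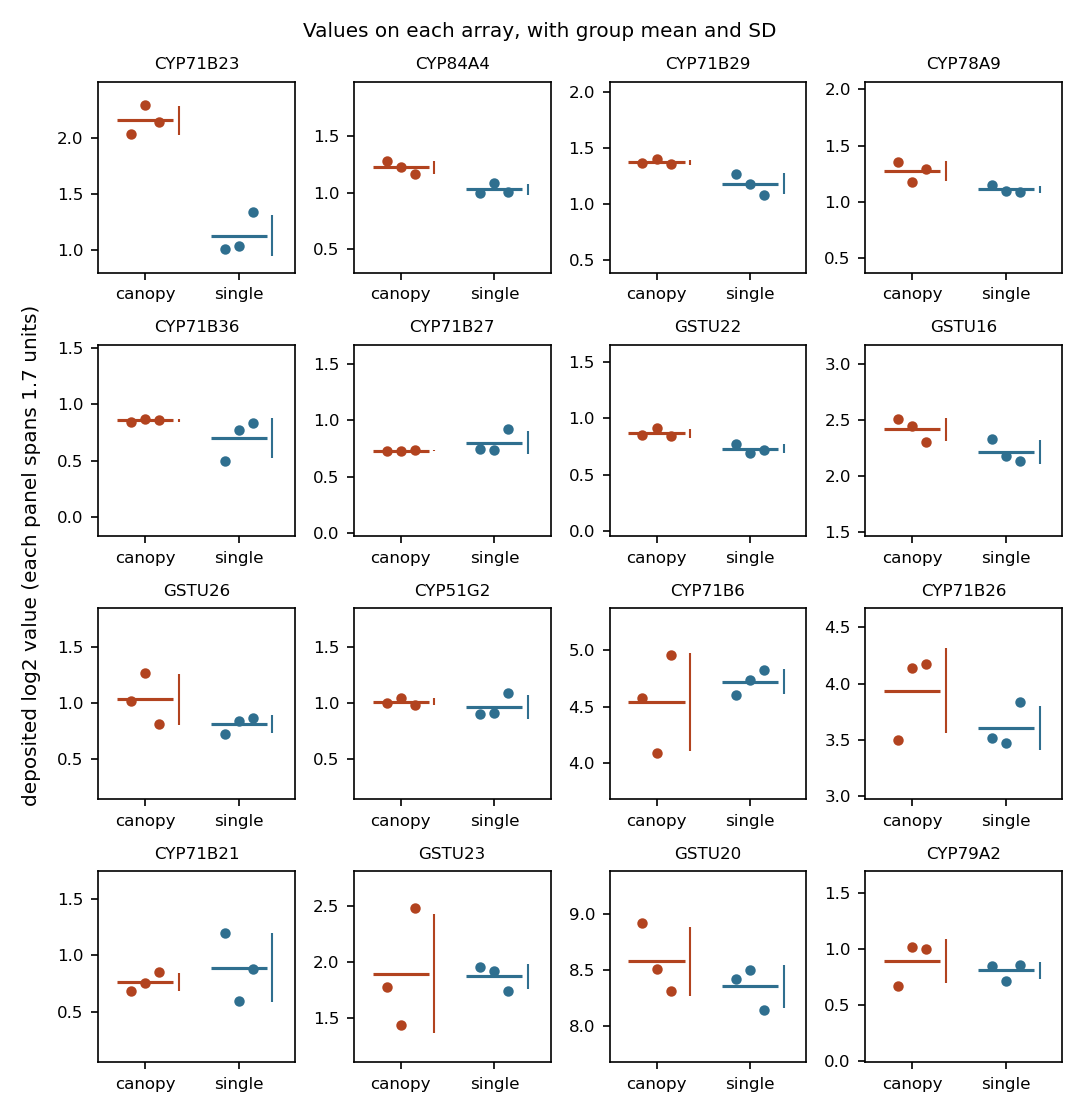
Deposited log2 values of 16 named members on each array, canopy left and single plants right. Points are arrays (n = 3 per group), horizontal lines are group means and vertical lines show the SD around the mean, and every panel spans the same number of log2 units. CYP71B23 shows a gap of 0.69 between the groups, while GSTU23, CYP71B6 and CYP71B26 spread widely within the canopy.

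Small positive differences were the more frequent sign among the members. A positive difference was found for 24 of the 34 (70.6%), 16 of 23 P450s and 8 of 11 GSTU genes, against 49% of all probe sets. The median difference was 0.10 over the 22 clan 71 genes, 0.04 for CYP51G2, the 1 clan 51 gene, and 0.06 over the 11 GSTU genes, against -0.0030 over all probe sets (log2). These medians moved with single arrays: clan 71 stood at 0.05 without canopy replicate 2, CYP51G2 at 0.0096 and 0.016 without single replicates 1 and 2, at 0.025 without canopy replicate 2 and at 0.11 without single replicate 3, and GSTU at 0.10 without single replicate 2. Over the clan 71 genes above 0.87 the median was 0.16. The sign depended on level in the whole table. Of all probe sets at or below 0.87, 58.6% had a positive difference, of those between 0.87 and the median 52.6%, and of those above the median 42.4%. Of the members, 8 of 12, 9 of 11 and 7 of 11 were positive in these 3 ranges. These counts describe the members only. No test was made over them, and the part of level in them was not tested.

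Groups without overlap were found for 7 of the 34 members (20.6%), 6 higher and 1 lower in the canopy. The background was 17% of all probe sets, 7.71% higher and 9.3% lower, so the members' share in both directions together lay near it. By direction, the members' share was larger than the background for higher and smaller for lower. These counts are small, and no test was made over them. Apart from CYP71B23, the gaps between groups ran from 0.00060 to 0.083 (log2). By class, the members without overlap were 6 of 23 P450s, CYP71B23 included, and 1 of 11 GSTU genes.

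The precision differed among members. The SE ran from 0.08 to 0.23 (log2), and the intervals of 3 members besides CYP71B23 reached a 1.5-fold change, those of CYP71B6, CYP71B26 and GSTU20. The within-group SD was larger in the canopy for 17 of the 34 members and smaller for 17, against 56.6% larger over all probe sets. The median SD of the members was 0.09 in the canopy, against 0.11 in single plants, and that of all probe sets was 0.13 in the canopy, against 0.11 in single plants. Mean levels lay at or below 0.87 for 12 members, 8 P450s and 4 GSTU genes, and above the median of all probe sets for 11. At such low levels a change in transcripts may leave little trace in the values.

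Other genes of the same pathways were few in the annotation used here. CYP718, a P450 of clan 85 whose symbol has no letter after the digits, differed by 0.04 ± 0.09 (log2, SE), with overlapping groups. A probe set listed with both CYP79C2 and AT1G58265 differed by 0.09 ± 0.08 (log2, SE; limma adjusted p = 0.74), without overlap. Both had a mean level below 0.87. Of 30 genes listed for the other glutathione transferase classes, 2 were measured and 0 passed. GSTF4, of the phi class, stood at 2.03, 2.31 and 2.32 in the canopy and at 2.87, 2.70 and 2.64 in single plants (log2). Its groups did not overlap, the difference was -0.52 ± 0.11 (log2, SE), and the limma adjusted p was 0.093. GSTL3, of the lambda class, whose enzymes can remove glutathione from flavonol conjugates, stood at 7.23, 7.33 and 7.10 in the canopy and at 6.95, 6.91 and 7.03 in single plants (log2). The groups did not overlap either, and the difference was 0.26 ± 0.09 (log2, SE; limma adjusted p = 0.31).

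Of 19 genes listed for glutathione synthesis, recycling and breakdown, 2 were measured and 0 passed. GR1, the cytosolic glutathione reductase, differed by 0.15 ± 0.09, and GR, the reductase of plastids and mitochondria, by -0.06 ± 0.11 (log2, SE). The groups of GR1 did not overlap (limma adjusted p = 0.56), and those of GR did. Groups without overlap were found for 17% of all probe sets. No gene of the lists for P450s under other symbols, P450 redox partners, ABCC transporters and regulators of the xenobiotic response was measured by name. The same held for the lists of P450s of cutin, suberin and wax, jasmonate turnover, abscisic acid, brassinosteroids, gibberellins, cytokinins, triterpenes and carotenoids, and of stress-responsive P450s. Of 7 sterol P450s, CYP51G2 was measured and did not pass.

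Pearson correlations between arrays, taken over probe sets that are not independent of each other, were 0.990 to 0.994 inside a group and 0.987 to 0.991 from one group to the other. The first principal component held 38.0% of the variance and set the canopy arrays, at 11.9 to 18.8, apart from the single-plant arrays, at -19.9 to -13.0. The second principal component held 20.6% of the variance and set canopy replicate 1, at -22.6, apart from canopy replicates 2 and 3, at 8.94 and 15.9, and from the single-plant arrays, at -4.15 to 1.3. Without canopy replicate 1, 25 of the 34 members had a positive difference and CYP71B23 was the 1 called, among 159 probe sets called in all. Few markers of tissue types could be followed beside these results. The summed linear level of the leaf-blade list (1 of 19 genes, PSAE-1) was 893 to 1011 in the canopy, against 928 to 956 in single plants, with overlap. That of the epidermis and guard-cell list (MUTE and SPCH, of 16) was 3.29 to 3.47 in the canopy, against 3.59 to 3.64 in single plants, without overlap, and that of the meristem and flower list (CLV3, of 13) was 1.43 to 1.79 in the canopy, against 1.68 to 1.76 in single plants. On its own MUTE overlapped between the groups, and SPCH did not (difference -0.15 ± 0.10, log2, SE; limma adjusted p = 0.60). The markers MUTE, SPCH and CLV3 lay at or below 0.87, and 0 of these markers passed the limma test. No gene of the vascular and root lists was measured, and the part of tissue makeup in the difference of CYP71B23 was not tested.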

How the data were processed

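RNA of 6 petiole pools, 3 per group, was hybridised to Affymetrix 3′ expression arrays with 100 ng of RNA as input. Per the submitters' processing notes, the authors used RMA in R 2.15.0, and the values they deposited are taken as log2. The log scale was read from the hybridisation controls, whose values rose 1.09 to 1.19 units with each doubling of their concentration. No source used here gives the chip definition or the offset. Groups and replicate numbers come from the titles. The number of arrays limits the precision.

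Of 22746 non-control probe sets, 13513 were listed with 1 gene, 503 with several and 8730 without one in the platform annotation. Of the 13513, 13436 were matched by gene number to the RefSeq gene table (assembly TAIR10.1), used for names and gene order. No genome build is stated for the values, so no coordinates are given, and no promoter or protein sequence was used. Where a gene had several probe sets, the brightest on average was used.

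All 22746 were fitted with limma 3.58.1 (lmFit, eBayes, R 4.3.3), two-sided, with no filter and no replicate block, and checked on simulated data. Member values, medians and permutation tests were computed with Python 3.11.15 and scipy 1.17.1. Named were members called or with an adjusted p under 0.1, those with the largest differences without overlap, the smallest p per clan or class, the largest spread, and members of a role list. From each list of related genes outside the set, the 2 with the smallest p were named. Other members are given as values, and GSTU18, GSTU27 and the cluster neighbours were picked out after their values were seen. LCR and FDH of the lists were left out, because these symbols belong to other genes in RefSeq. Clans, lists and members were chosen with earlier results of these data known. Alternatives were a replicate block, a filter on low levels, equal medians, quantile normalization, a variance trend, array weights, other thresholds, leaving out ambiguous probe sets, averaging probe sets, and leaving out each array. The labels state no pairing, so the replicate numbers were not taken as pairs. Deviations of same-numbered arrays of the groups had correlations of 0.0024, 0.099 and -0.064, and whether such arrays shared a batch was not tested.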

Additional observations from a re-analysis of the deposited data

How the results depend on the processing

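CYP71B23 passed limma in 10 of the 12 alternatives that could change it, with differences of 0.96 to 1.13 (log2) and adjusted p of 0.0024 to 0.072. The exceptions were without single replicates 1 and 2, so that leaving out 1 array gave 0 to 1 called P450s and 0 called GSTU genes. An unadjusted p under 0.05 gave 2 P450s. With the replicate block, 63 of all probe sets were called, against 154, and CYP71B23 stayed past the threshold (difference 1.03, adjusted p = 0.041) while the counts of called P450s (1) and GSTU genes (0) did not change. Over all probe sets, leaving out 1 array gave 17 to 159 calls, an adjusted p under 0.1 gave 369 and an unadjusted p under 0.05 gave 2786. The clan 71 median was 0.16 over the genes left by the filter on low levels and 0.050 to 0.13 when 1 array was left out, and the GSTU median was 0.061 to 0.10 (log2), with 0.0096 to 0.11 for the 1 gene of clan 51. Leaving out 1 array turned the sign of 3 named genes that had not passed: CYP71B6 (-0.389 to 0.0472, positive without canopy replicate 2), CYP71B21 (-0.276 to 0.0285, positive without single replicate 1) and GSTU23 (-0.264 to 0.257, negative without canopy replicate 3 and, at -0.0392, without single replicate 3). The cause was not tested. Of the other values of the 15 named members besides CYP71B23 under alternatives that could change them, 171 kept their sign and their side of the threshold. Counts of positive differences, an alternative chosen after seeing the data, stayed at 16 to 17 P450s and 7 to 8 GSTU genes when 1 array was left out. All members had 1 probe set, none ending in _s_at or _x_at, so averaging probe sets and leaving out ambiguous ones could not change a value. Signal near the lower end of the scale limits what can be seen for the 12 members at or below 0.87.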
